A study of Dermatophagoides pteronyssinus with 3 samples.

Results

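The longest of 3 gel fractions of house dust mite RNA, cut at more than 500 bp, was examined from within, contig by contig. All 29244 contigs listed for this fraction were taken, of 47844 listed for the 3 fractions together. The RNA came from a standard commercial culture of the mite Dermatophagoides pteronyssinus and the submitters call it immunogenic. Each fraction was sequenced once as total RNA, after about 100 ng had entered a library kit that depletes ribosomal RNA, and each was assembled into its own contigs. The other fractions held RNA of about 300 bp and RNA of 50 to 150 bp, and all 3 share the culture, the Trizol extraction and the kit. There was 1 library per fraction and no replicate, so no test was made and every value describes this library. The tables used here give contig names, lengths and read placements but neither sequences nor gene names. Whether a contig belongs to the mite, to its food or to microbes of the culture, and whether it is ribosomal, messenger or other RNA, was therefore not analysed here, and the label of the fraction could be checked only against contig length.

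House dust mites are minute arachnids whose bodies and droppings are a main source of indoor allergens. In the total RNA of an animal, ribosomal RNA makes up most of the mass and the many kinds of messenger RNA share a small remainder. Probes of a depletion kit remove only ribosomal RNA that resembles the species they were designed for, which for this kit are human, mouse and rat. An assembler such as Trinity joins overlapping reads into contigs, groups contigs that look like variants of one transcript into a gene, and groups genes that share sequence into a component. A gene is used below in this sense of the assembler. The first number in a contig name gives the read cluster, a wider group that can hold several components.

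The library had 99600344 reads placed on listed contigs, and its 29244 contigs formed 26209 genes and 23553 components in 22618 read clusters. The contigs ran from 151 to 8490 bases and summed to 10010359 bases. Most components were simple: 20913 of them (88.8%) were a single contig, and 1914 (8.13%) held more than 1 gene. No read was placed on 47 components, 14755 had 1 to 9 reads, 8751 had at least 10 and 981 had at least 100. Reads are given below as reads per 1000000 placed reads (RPM), which counts reads whatever the length of the sequence. Levels of different sequences are compared by mean depth, the aligned bases divided by the contig bases, which is a value per length. For a gene or component it is taken over the bases of all its contigs. Any bases that contigs share then count once per contig. This lowers the depth of genes with many contigs if each read was placed only once. At this size a count of 0 allows up to 0.0301 RPM, at 3 counts.

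The 10 components with most reads held 79.4% of the reads on 0.774% of the assembled bases, and the 23543 components from rank 11 on shared 20.57% (exact 95% interval 20.57% to 20.58%, counting error only) on 99.2% of the bases. Reads remained concentrated below rank 10: 10 components, those ranked 11 to 20, already held over 50% of the remaining reads, 32 components held 90%, and it took 1990 to reach 99%. A contig over 500 bases, the size on the label, was present in 8 of the 10 highest components and in 2708 (11.5%) of those from rank 11 on. Contig length comes from the assembly and need not be the length of the RNA. Of the 23553 components, 14755 had 1 to 9 reads, and the part of low read counts in contig length was not tested. Ranks 11 to 20 held 10.7% of all reads and ranks 21 to 50 held 8.57%. Ranks 51 to 100 held 0.695%, ranks 101 to 500 held 0.286%, ranks 501 to 1000 held 0.0738%, and the 22553 components after rank 1000 held 0.270%. The component at rank 21 had 597545 reads, the one at rank 50 had 54639 and the one at rank 100 had 3283.

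**Figure D1:**
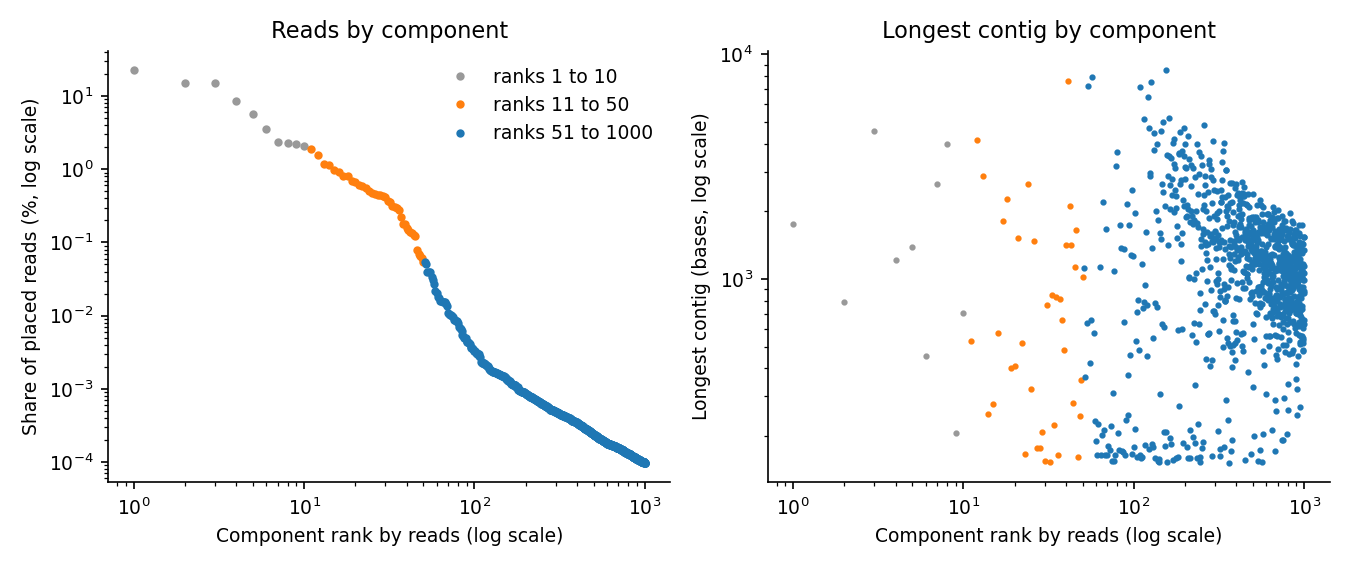
Share of placed reads (left, percent, log scale) and longest contig in bases (right, log scale) of the 1000 components with most reads, by rank on a log scale; each point is 1 component of the single library. After rank 100 most components have contigs near and above 1000 bases (right panel), and few have only contigs of 200 bases or less. In ranks 51 to 100 these kinds are similar in number, with 17 of 50 components over 1000 bases and 16 at 200 bases or less.

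The 10 components ranked 11 to 20 were of 3 shapes. In 4 of them the longest contig was over 1000 bases, and their depth was the lowest of the 10. TRINITY_DN10369_c5, at rank 12, had 1579672 reads on 9 contigs of 166 to 4171 bases, at a mean depth of 13415. Its longest pair, of 4171 and 4130 bases, held 35.2% and 35.0% of its reads and were covered over 99.9% and 99.6% of their length. TRINITY_DN10354_c0, at rank 13, had 1187678 reads on 17 contigs of 161 to 2873 bases at a depth of 9802. TRINITY_DN10364_c3 had 808451 reads at a depth of 10512, nearly all on contigs of 1808 and 1793 bases with 45.6% and 45.2% of the reads. TRINITY_DN10361_c3 had 804210 reads at a depth of 14434, and its 2271-base contig held 77.9% of them at full cover.

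Another 4 of the 10 had no contig over 500 bases, and all of these were deeper than the long ones. Their contigs summed to 1945 to 3179 bases, against 5606 to 12171 bases in the long ones. Ranks follow reads, so a component on fewer bases has a higher depth at the same reads. This sets part of the gap in depth, here and in the ranks below. TRINITY_DN9808_c0, at rank 14, was a single gene of 9 contigs between 151 and 250 bases, with 1124874 reads and a depth of 58155. Its reads were spread over similar contigs: the highest, of 232 bases, held 24.9%, and another of the same length held 18.0%. TRINITY_DN10334_c4 had 977641 reads on contigs of at most 277 bases at a depth of 43649. TRINITY_DN10366_c1 reached 402 bases, with 695292 reads at a depth of 21923, and TRINITY_DN10364_c2 reached 411 bases, with 663586 reads at 28703. These components mixed very unlike contigs. In TRINITY_DN10334_c4 contig depth ran from 1.22 to 166939. Wide ranges were not particular to the short components. Contig depth ran from 1.25 to 16724 in TRINITY_DN10354_c0 and from 1.90 to 50046 in TRINITY_DN10358_c5. In TRINITY_DN10369_c5 the range was narrower, from 661 to 28128.

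The other pair lay between these lengths. TRINITY_DN10363_c6, at rank 11, had the most reads of the 10, 1891472, on contigs of 158 to 529 bases, and the highest depth, 88269. All of its 8 contigs were covered in full. TRINITY_DN10358_c5 reached 576 bases, with 904991 reads on 16 contigs at a depth of 20669. Over the 10 components, 76 of 115 contigs (66.1%) were covered in full, and 98.2% of the contig bases had a read.

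Among the 40 components ranked 11 to 50, 7 were a single contig. These contigs were short, from 154 to 209 bases, and their depth of 43299 to 331655 was of the order seen in the 10 highest components, whose depth ran from 11361 to 354264. The deepest was TRINITY_DN10311_c5, with 549437 reads on 166 bases. All 7 stood in a read cluster that also holds one of the 10 highest components, and together they had 2.55% of the reads. Of all 40 components, 9 were in such a read cluster, with 3.38% of the reads. Without sequences, it was not analysed whether these short contigs are pieces of the abundant ones.

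Long and much shallower sequences appeared in the same ranks. TRINITY_DN9944_c0, at rank 41, was a single gene of 4 contigs of 5323, 5850, 7061 and 7588 bases. It had 145252 reads at a depth of 557.9, the lowest depth of the 40 components, and its contigs were covered over 99.2% to 100% of their length. The 4 contigs took similar parts of its reads, 27.7%, 29.6%, 20.3% and 22.4% in the same order. TRINITY_DN10357_c1, at rank 24, had 496300 reads on 9 contigs of 151 to 2657 bases at a depth of 4438.

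Further down, long and short components parted. In ranks 101 to 500 the longest contig of a component had a median of 1478.5 bases and 269 of 400 components (67.2%) had one over 1000 bases, with a median depth of 11.9. In the same ranks 39 components had no contig over 200 bases, and their median depth was 409. These ranks are bounded by reads, from 238 to 3223, which sets part of this gap: at the same reads a shorter component is deeper. In ranks 501 to 1000 the median longest contig was 1049.5 bases, 466 of 500 components had a contig over 500 bases, and 6 had none over 200 bases. After rank 1000 the median was 223 bases at a median depth of 2.82, and 118 of 22553 components (0.523%) had a contig over 1000 bases. Contigs covered in full made up 31.7% in ranks 101 to 500 and 58.8% in ranks 501 to 1000. After rank 1000, where most components had fewer than 10 reads, the share was 90.9% and is no measure of better cover. Components of ranks 101 to 500 had 5.62 contigs on average, against 1.11 after rank 1000.

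By gene, 3 classes divided the library. Genes below 1 RPM numbered 25095 (95.7% of the genes), held 0.298% of the reads and made up 73.6% of the assembled bases. The 1050 genes from 1 to 1000 RPM (4.01% of the genes) held 2.23% of the reads (exact 95% interval 2.224% to 2.230%) and 24.3% of the assembled bases. The 64 genes over 1000 RPM held 97.5% of the reads on 2.03% of the bases. At the low bound, the genes just inside had 100 reads (1.004 RPM), those just outside had 99 (0.994 RPM). At the high bound, TRINITY_DN10362_c1_g4 with 950.8 RPM was the highest inside and TRINITY_DN10332_c1_g2 with 1006 RPM the lowest outside.

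**Figure D2:**
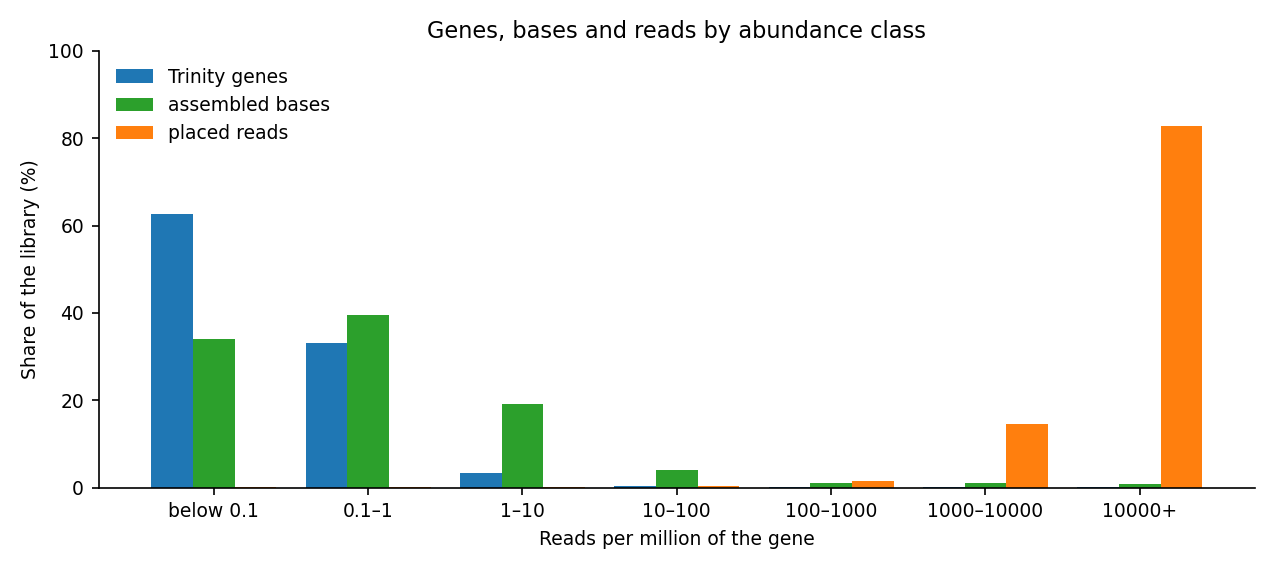
Share of the genes, of the assembled bases and of the placed reads (percent of the single library) in 7 classes of RPM. Genes and reads lie at opposite ends: the lowest class has 62.6% of the genes and 0.0878% of the reads, the highest has 0.0839% of the genes and 82.8% of the reads, and genes of 1 to 10 RPM have 19.1% of the bases.

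By number, most genes from 1 to 1000 RPM had a contig over 1000 bases, while their reads lay more on shorter contigs. The longest contig of these genes had a median of 1134.5 bases and quartiles of 663.75 and 1605.5 bases. The median depended on the weight and the unit: it was 308 bases weighted by reads, and 694 bases among genes of 1 to 1000 RPKM over the longest contig, a value per length. By RPM, the median longest contig was 223 bases in genes below 1 RPM and 502.5 bases in genes over 1000 RPM. Within the class, 606 genes (57.7%) had a contig over 1000 bases and held 21.2% of the reads of the class. The 144 genes with no contig over 300 bases (13.7%) held 49.9% of them. The remaining 300 genes, between these lengths, held 28.9%.

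Depth differed as much as length. The long genes had a median depth of 10.4, with quartiles of 7.82 and 14.7, and 474 of 606 (78.2%) lay between a depth of 5 and 20. The short genes had a median depth of 652, with quartiles of 188 and 3003. Long genes had 2.74 contigs on average and short genes 1.68. The class bound itself sets part of this gap, since a gene of 1 contig with 1 RPM has a depth of 49.9 at 200 bases and 4.99 at 2000 bases. The upper bound, which is a depth of 4989 at 2000 bases, leaves out another 20 genes with a contig over 1000 bases. Within the class, 12 of the 606 genes over 1000 bases (1.98%) and 121 of the 144 short genes (84.0%) reached a depth of 100.

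**Figure D3:**
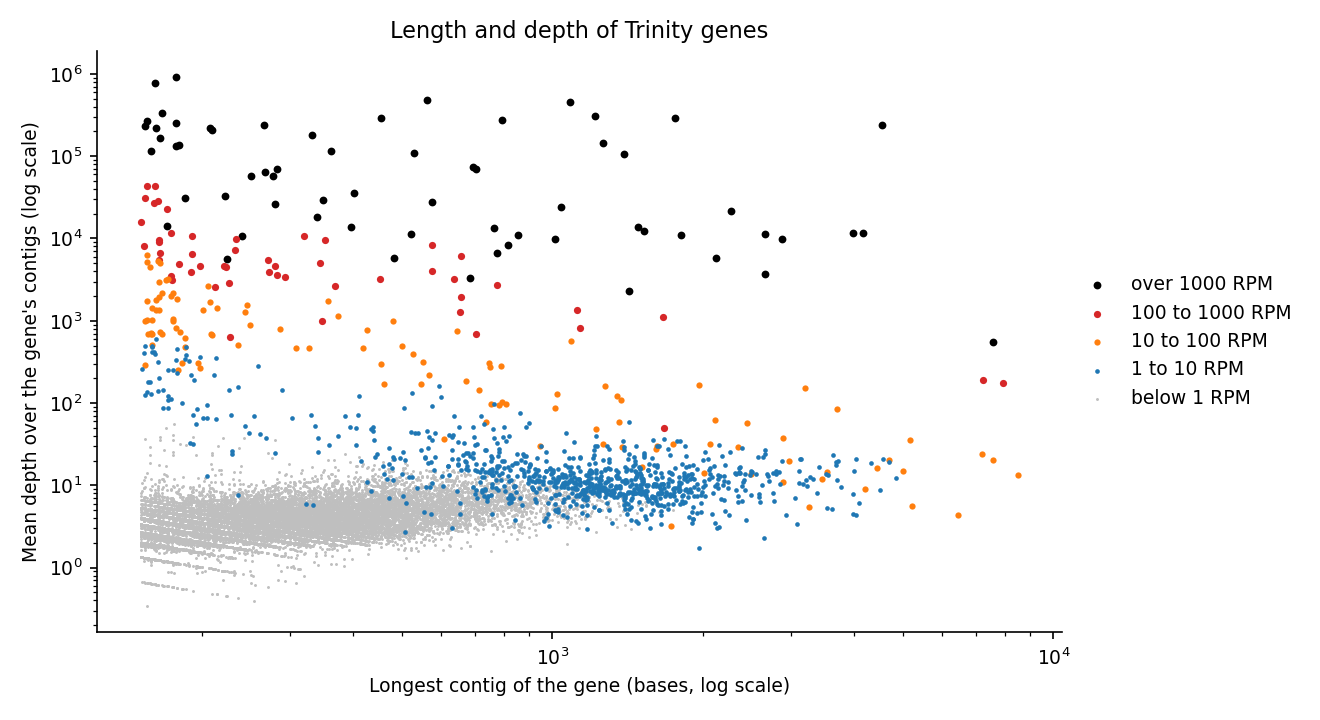
Mean depth over the contigs of a gene (log scale) against the longest contig of the gene in bases (log scale), 1 point per gene with at least 1 read, coloured by RPM. Genes of 1 to 10 RPM gather near 1000 to 2000 bases at a depth near 10, while many genes of 10 to 1000 RPM lie along the left edge, at contigs of 300 bases or less, and reach a depth of 43299.

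Length and depth changed within the range of the class. The groups below are set by RPM, and at the same length a higher RPM gives a higher depth. The grouping therefore sets part of the rise in depth. The 881 genes from 1 to 10 RPM had a median longest contig of 1195 bases at a median depth of 11.8, and 560 (63.6%) passed 1000 bases. The 117 genes from 10 to 100 RPM had a median of 480 bases at a depth of 304, and 40 (34.2%) passed 1000 bases. The 52 genes from 100 to 1000 RPM had a median of 233.5 bases at a depth of 4618, and 6 (11.5%) passed 1000 bases. Genes in a read cluster of the 10 highest components were 1.14%, 14.5% and 21.2% of these groups in the same order, 38 genes in all. Of those 38 genes, 36 had no contig over 300 bases and none had a contig over 500 bases. Without them, the median longest contig of the other 1012 genes was 1167.5 bases and their median depth 13.1, against 13.6 for the whole class. The 108 short genes outside these read clusters had a median depth of 446, and the share of reads of the class without the 38 genes was 1.78%.

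Few genes carried most of the class. On 22 genes lay 50% of its reads and on 184 genes 90%, and the 10 highest held 30.6%. Genes with a depth of at least 1000 numbered 76 and held 72.7% of the reads of the class, with a median longest contig of 185 bases. Genes with a depth under 50 numbered 835 (79.5%), held 11.2% and had a median of 1273 bases. Depth rises with reads and falls with bases, so grouping by depth sets part of these lengths and shares.

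Of the 10 genes with most reads, 5 had no contig over 300 bases. TRINITY_DN10362_c1_g4 was the highest, with 94697 reads on 2 contigs of 555 and 575 bases at a depth of 8427. TRINITY_DN10367_c8_g1 followed with 90772 reads on contigs of 155 and 163 bases, which differed 10-fold in depth, at 5067 and 50980. TRINITY_DN10360_c29_g1, a single contig of 161 bases with 69579 reads, had the highest depth of the class, 43299, and TRINITY_DN10366_c2_g3, a single contig of 155 bases, was next with 42873. These last 3 genes stand in read clusters of the 10 highest components, and TRINITY_DN10366_c2_g3 belongs to one of these components, as 5 genes of the class do. Of the 10, TRINITY_DN10356_c1_g2 and TRINITY_DN10337_c1_g1 had a contig over 1000 bases. TRINITY_DN10356_c1_g2 had 69032 reads, and its 4 longest contigs, of 1031 to 1659 bases, were close in depth, from 1178 to 1406. TRINITY_DN10337_c1_g1 had 52788 reads and a longest contig of 1120 bases, with the highest depth of any long gene of the class, 1351 over its contigs. Most of its reads, 47247, lay on a contig of 941 bases at a depth of 5050. The contig of 1120 bases had 3908 reads at a depth of 351.

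Of the 12 genes of the class with the longest contigs, 2 had a depth of at least 100, and the others had a depth of 4.42 to 35.9. TRINITY_DN10325_c0_g1 had the longest contig of the library, 8490 bases, with 1280 reads on it at a depth of 15.2 and a cover of 99.96%. TRINITY_DN10352_c0_g1 had contigs of 7947 and 7944 bases with 15652 and 14839 reads, at depths of 197.9 and 187.6. Its other 6 contigs were of at most 811 bases and had 4 to 136 reads each. TRINITY_DN10292_c0_g1 had contigs of 7242, 5792 and 4705 bases with 12668, 11981 and 11797 reads, all covered in full. Its depth over all contigs, 190.6, and that of TRINITY_DN10352_c0_g1, 173.9, were over 10 times the median of the long genes.

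Of the genes of the class, 527 of 1050 (50.2%) were a single contig, against 96.7% of the genes below 1 RPM and 17.2% of those over 1000 RPM. In the 523 genes with more contigs, the contig with most reads held a median of 63.3% of the reads (quartiles 50.3% and 86.9%). In 427 of these genes (81.6%) it was also the longest. At the same depth a longer contig has more reads, which sets part of this count. At least 10 contigs were listed for 40 genes. TRINITY_DN10236_c2_g1 had the most, 57 contigs of 152 to 630 bases that shared 576 reads, and its depth was 3.02. TRINITY_DN10333_c2_g1 differed from it in level: it had 40 contigs of 169 to 1671 bases, 13456 reads and a depth of 50.4. The size of this difference depends on the measure. With mean coverage summed over the contigs, TRINITY_DN10236_c2_g1 had 177 and TRINITY_DN10333_c2_g1 had 1175.

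Covered percent followed the place of a contig in its gene. In genes of a single contig, 461 of 527 (87.5%) were covered in full. In genes with more contigs, 229 of 523 longest contigs (43.8%) were, and 258 of the 1708 other contigs (15.1%). Of these other contigs, 680 (39.8%) were covered over less than 90% of their length and 61 over less than 50%, whereas none of the 1050 longest contigs was below 50%. The other contigs also had a lower median depth, 4.64 against 13.6 for the longest contigs of the same genes. The labels do not say how a read that fits more than 1 contig of a gene was placed, and its part in these values was not tested.

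**Figure D4:**
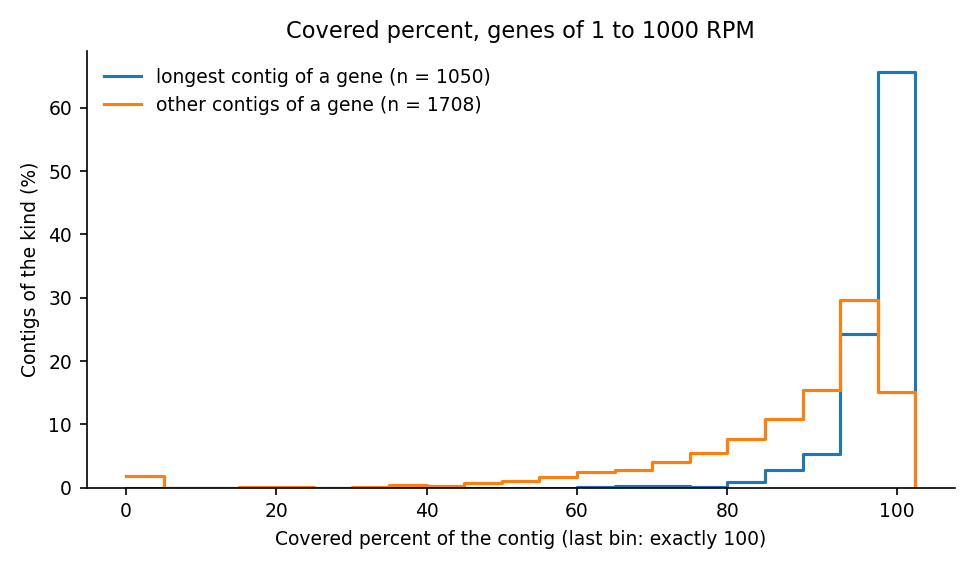
Distribution of the covered percent of contigs in genes of 1 to 1000 RPM, as percent of the contigs of each kind in steps of 5, the last step holding contigs covered in full. The longest contig of a gene (n = 1050) is covered in full in 65.7% of cases, while the other contigs (n = 1708) spread below and reach full cover in 15.1%.

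Summed over the contigs of a gene, cover was high: 978 of the 1050 genes (93.1%) were covered over at least 90% of their bases, with a median of 99.8%. Each fraction was assembled into its own contigs, so high cover is partly built in and is no trait of the class. Genes below 1 RPM, with a median of 7 reads, had a median cover of 100%, and 90.8% of them were covered in full. The least covered gene of the class was TRINITY_DN10366_c1_g3, a contig of 373 bases with 160 reads, a depth of 39.5 and a cover of 64.1%. Its reads aligned over 92.1 bases on average. The next, TRINITY_DN10359_c2_g1, had 1572 reads on 158 bases at a depth of 706. Its cover was 68.4%, and its reads aligned over 71.0 bases on average. The median gene of the class had 100.4 aligned bases per read. An average under 90 was found in 11 genes, the lowest in TRINITY_DN7915_c1_g1 (42.5 bases, 143 reads), and one of the 11, TRINITY_DN10370_c31_g1, had 17344 reads on 11 contigs of 157 to 227 bases at 74.9 aligned bases per read.

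The class was set beside the same class of the other fractions, without matching any contig. The fraction over 500 bp had 1050 genes of 1 to 1000 RPM, against 354 in the fraction of about 300 bp and 540 in that of 50 to 150 bp. As a share of all genes of the library these were 4.01%, against 3.90% and 8.57%, so the highest share was in the fraction of 50 to 150 bp. Their share of reads was 2.23%, against 3.31% and 6.61%. The median longest contig was 1134.5 bases, against 445.5 and 236.5 bases, and genes with a contig over 1000 bases made up 57.7%, against 19.8% and 4.26%. Genes with no contig over 300 bases numbered 144 (13.7% of the class), against 132 (37.3%) and 325 (60.2%). The longest contigs of the class summed to 1321548 bases, against 220794 and 207469 bases.

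**Figure D5:**
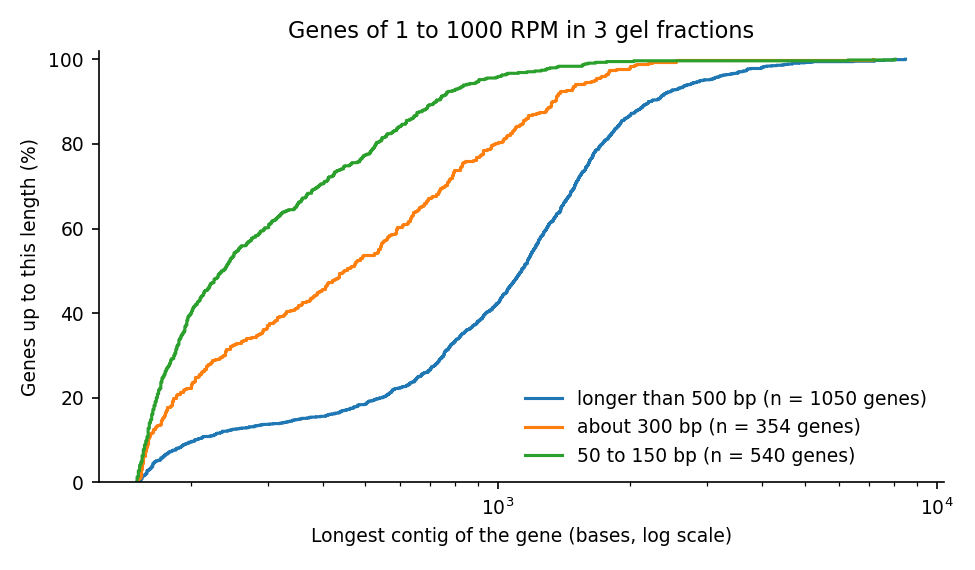
Cumulative share of genes of 1 to 1000 RPM (percent) by the longest contig of the gene in bases (log scale), 1 line per gel fraction and library. The line of the fraction over 500 bp lies to the right of the others, with a median of 1134.5 bases against 445.5 bases (about 300 bp) and 236.5 bases (50 to 150 bp).

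The libraries differ in depth, and 1 RPM is 99.6 reads in the fraction over 500 bp, against 60.1 and 38.2 reads in the others. With at least 100 reads asked of every gene in place of 1 RPM, the genes with a contig over 1000 bases were 606 of 1050 (57.7%), against 59 of 281 (20.996%) and 17 of 405 (4.20%). Among genes with a depth from 5 to 50 whatever their RPM, they were 653 of 4839 (13.5%), against 52 of 900 (5.78%) and 14 of 694 (2.02%). The order held in these settings. With 1 library per fraction, the gel fraction, the sequencing depth and the separate assembly cannot be told apart.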

How the data were processed

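In the table that the authors deposited for a library, each contig has its own line with, per the file headers, contig length, the count of reads, aligned bases, mean coverage (a signal not scaled by library size), RPKM, covered bases and the covered percent. Per the submitters' processing notes, bcl2fastq and Bowtie2 were used. Assembly settings and the placing of reads with more than 1 matching contig are recorded in neither the labels nor the headers. Coverage and covered percent were recomputed to within 5e-05, and the deposited RPKM to within 0.0118% from read counts at 100 reads or more.

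Reads, bases and covered bases were summed per gene (name without its isoform part) and per component (also without its gene part) and ranked by reads. The RPM denominator is the reads on listed contigs; unplaced reads are not known. Intervals are exact binomial (Clopper-Pearson) and cover counting error only, since PCR copies of a molecule could not be told from separate molecules. Named were, by rule, the components ranked 11 to 20, the 10 genes with most reads below 1000 RPM, and those with the longest contig, most contigs, highest depth and least cover; other names were chosen after their values were seen. The classes and lists were chosen with earlier results of these data known. The sums were also run on read counts drawn at random from the counts of this library (26209 genes, 200 of them raised 4-fold). The share from rank 11 came back within 0.00769 percentage points, and 1043 genes fell in the class against 1035 true ones. The same sums were used on both sides, so the draw shows counting error only and does not check how reads were placed. The reference gene table was not used, since contigs could not be matched to it. Tables were handled with pandas 2.3.3 and NumPy 2.4.6 under Python 3.11.15, intervals were computed with SciPy 1.17.1 and plots drawn with Matplotlib 3.10.9.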

Additional observations from a re-analysis of the deposited data

How the results depend on the processing

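With 1 library there was neither a replicate to leave out nor a test. No paired analysis was possible because the fraction has a single library. The share of reads from rank 11 on (20.57%) was 9.89% from rank 21 on, 36.9% with genes in place of components, 27.1% with summed mean coverage in place of reads and 24.1% without the highest component. The 1050 genes of 1 to 1000 RPM became 4450 with RPM taken over the reads outside the 10 highest components; RPKM over the longest contig gave 1403, a minimum of 200 bases gave 1052 and components in place of genes gave 936. Their share of reads (2.23%) was 1.38% for components and 1.72% with contigs of at least 200 bases. Outside the read clusters of the 10 highest components, a choice made after seeing the data, there were 1012 genes with 1.78% of the reads and a median longest contig of 1167.5 bases. That median (1134.5 bases) was 308 bases weighted by reads, 1087 bases for genes of 1 contig and 694 bases for genes of 1 to 1000 RPKM, also chosen after seeing the data. Components with at least 10 reads (8751) numbered 23506 with at least 1 read, 981 with at least 100 reads and 2724 among contigs of at least 500 bases. Contigs of the class covered in full (34.4%) became 44.3% at a cover of at least 99% and 75.5% weighted by reads. Components below 10 reads have too few reads for a statement on level or cover.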

Other observations

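Taken by depth in place of RPM, genes of all abundances had their longest contigs at moderate depth. The median longest contig was 212 bases in the 21090 genes with a depth below 5, 399 bases from 5 to 10, 729 bases from 10 to 20 and 755.5 bases from 20 to 50. It was 540 bases in the 44 genes from 50 to 100, 198 bases in the 97 genes from 100 to 1000, 217.5 bases in the 76 genes from 1000 to 10000 and 282 bases in the 63 genes above. Genes with a contig over 1000 bases were 0.431%, 8.65%, 35.0% and 39.1% of the first 4 groups and 15.9%, 11.3%, 9.21% and 22.2% of the last 4.

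No read was placed on 105 contigs, with a median length of 172 bases and a longest of 505 bases. Of these, 53 belong to genes without any read and 31 to genes of 1 to 1000 RPM, and none of these 31 is the longest contig of its gene. None belongs to a gene over 1000 RPM.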
